A study of Mus musculus with 54 samples.

Results

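The 7 genes described here are Cyp2a4, Cyp2a5, Cyp2a12, Cyp2a22, Cyp2b9, Cyp2b10 and Cyp2b13, the Cyp2a and Cyp2b genes that lie near Mrps12 on mouse chromosome 7, among the 54356 genes listed in each table. They were chosen by name, and the choice was made on the livers of mutant mice, where Cyp2a22 had been lost and Cyp2a5 was higher than in wild-type livers. Values of these genes in mutant against wild-type livers are therefore given as a description without a test, and tests were kept to the hearts and to the comparison of the mutants with each other in the liver.

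All mice were C57BL/6 males aged 20 weeks that had been fed a high-fat diet (HFD) with 42% of its energy as fat, and RNA was taken from hearts and livers. Mrps12 encodes a protein of the small subunit of the mitochondrial ribosome, the Mrps12ep/ep mice were homozygous for an error-prone allele, the Mrps12ha/ha mice were homozygous for a hyper-accurate allele, and the Mrps12+/+ mice were wild-type mice matched by age and litter. The alleles were carried constitutively in all tissues. Each of the 3 genotypes was represented by 3 mice in each tissue, so that 9 hearts and 9 livers were compared, and the 3 technical libraries of a mouse had been combined. The normalised count is the number of reads assigned to a gene divided by a size factor for the library. It was set separately in the 2 tissues, so that no test was made across them.

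Cyp2a and Cyp2b genes encode haem-containing cytochrome P450 enzymes of the endoplasmic reticulum, which take electrons from P450 reductase and oxidise drugs, plant compounds, nitrosamines and steroids, and in the liver they act mainly in hepatocytes. Cyp2a5, whose enzyme hydroxylates coumarin, is known for its induction during liver injury and stress, and the enzyme of its close relative Cyp2a4 hydroxylates testosterone. Cyp2b10 is the classical target of the nuclear receptor CAR, which is encoded by Nr1i3, and Cyp2b9 and Cyp2b13 are known for higher expression in the livers of female than of male mice. The genes arose by duplication, and neighbouring copies are alike enough for short reads to fit several of them.

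In the GRCm38 build and the GENCODE vM21 annotation the 7 genes occupied 1139.8 kb of chromosome 7, from Cyp2b10 (25897620 to 25926624) to Cyp2a12 (27029081 to 27037375), and the last of them ended 1.7 Mb before Mrps12 (28739641 to 28741820). Cyp2b13 (26061497 to 26096197), Cyp2b9 (26173411 to 26210661), Cyp2a4 (26307169 to 26315088) and Cyp2a5 (26835305 to 26843548) lay between them on the plus strand. Cyp2a22 (26931631 to 26939384) was the 1 member on the minus strand, and 100% of it lay inside the pseudogene Cyp2a21-ps, which is annotated on the plus strand. Each main transcript had 9 exons, and transcript lengths were 1681 bases for Cyp2a12, 1738 for Cyp2a4, 1796 for Cyp2a22, 1875 for Cyp2b13, 1876 for Cyp2b9, 1916 for Cyp2b10 and 2013 for Cyp2a5.

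The sequences just before the start sites show how alike the members are that nevertheless differed in level. All 7 genes were matched to RefSeq start sites in GRCm38.p6, and of the 250 bases before each start those that lie before the GENCODE start are printed, 5′ to 3′ on the strand of the gene. The windows are chr7:26306942-26307168 for Cyp2a4, chr7:26835089-26835304 for Cyp2a5, chr7:26173159-26173408 for Cyp2b9, chr7:26061245-26061494 for Cyp2b13, chr7:27028840-27029080 for Cyp2a12 and, on the minus strand, chr7:26939387-26939636 for Cyp2a22. Capitals mark the bases that differ from, or are missing in, the partner of each pair within the aligned part. The first 18 bases of Cyp2a22, the first base of Cyp2a4 and the last 2 of Cyp2a12 lie beyond it and stand in lower case without a partner.
Cyp2a4: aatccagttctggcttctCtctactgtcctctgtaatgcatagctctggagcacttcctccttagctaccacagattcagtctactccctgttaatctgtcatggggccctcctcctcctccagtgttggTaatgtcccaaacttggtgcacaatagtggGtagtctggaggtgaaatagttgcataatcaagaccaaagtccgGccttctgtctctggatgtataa
Cyp2a5: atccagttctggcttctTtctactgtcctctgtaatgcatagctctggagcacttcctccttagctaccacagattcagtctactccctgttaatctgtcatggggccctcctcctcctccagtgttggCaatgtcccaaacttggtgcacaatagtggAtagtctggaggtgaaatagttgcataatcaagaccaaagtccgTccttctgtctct
Cyp2b9: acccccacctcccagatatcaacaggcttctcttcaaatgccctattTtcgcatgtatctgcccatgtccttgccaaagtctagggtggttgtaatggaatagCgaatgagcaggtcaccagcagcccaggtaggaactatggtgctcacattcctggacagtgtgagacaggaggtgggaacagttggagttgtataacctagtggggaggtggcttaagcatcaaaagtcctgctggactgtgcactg
Cyp2b13: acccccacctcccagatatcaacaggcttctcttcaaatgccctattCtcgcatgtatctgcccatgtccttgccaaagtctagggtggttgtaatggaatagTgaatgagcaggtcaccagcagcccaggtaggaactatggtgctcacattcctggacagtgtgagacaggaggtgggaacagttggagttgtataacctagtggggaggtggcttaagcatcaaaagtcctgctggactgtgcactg
Cyp2a12: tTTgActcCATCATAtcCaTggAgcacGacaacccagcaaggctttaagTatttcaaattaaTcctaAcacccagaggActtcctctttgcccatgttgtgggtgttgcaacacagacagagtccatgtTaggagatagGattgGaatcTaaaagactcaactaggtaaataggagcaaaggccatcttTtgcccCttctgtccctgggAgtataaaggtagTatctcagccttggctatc
Cyp2a22: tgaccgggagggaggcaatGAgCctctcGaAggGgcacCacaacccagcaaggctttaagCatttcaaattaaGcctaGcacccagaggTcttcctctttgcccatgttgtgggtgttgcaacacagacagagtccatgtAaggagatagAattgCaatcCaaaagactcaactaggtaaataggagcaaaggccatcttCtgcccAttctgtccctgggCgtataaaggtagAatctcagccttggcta

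Over the aligned windows of 250 bases Cyp2a4 and Cyp2a5 differed at 4 bases, Cyp2b9 and Cyp2b13 at 2 bases, and Cyp2a12 and Cyp2a22 at 19 bases with 7 further bases in gaps. In all, 4 short motifs were searched on both strands of the full 250 bases of each member and of 32851 RefSeq promoters. TATAAA, the TATA box, was found in the 4 Cyp2a members and in 12.4% of all promoters. CAAAGTCC, a core of sites bound by HNF4, was found in Cyp2a4 and Cyp2a5 and in 1.2% of all promoters. TTGCNNAA, which C/EBP factors bind, was found in Cyp2a4, Cyp2a5, Cyp2b9, Cyp2b10 and Cyp2b13 and in 9.56% of all promoters, and AGGTCA, a half-site of nuclear receptors, in Cyp2b9 and Cyp2b13 and in 14.0%. A match describes letters in the window and was not tested as a binding site.

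The transcripts were also alike, which bears on every value that follows. The main transcripts of Cyp2a4 and Cyp2a5 were identical at 98.3% of aligned bases, those of Cyp2a12 and Cyp2a22 at 96.7% and those of Cyp2b9 and Cyp2b13 at 91.9%. A window of 31 bases, the default word length by which Salmon indexes transcripts, was also present in another gene for 58.5% of the windows of Cyp2a5, 58.1% of Cyp2a4, 41.6% of Cyp2a12, 40.8% of Cyp2b13, 39.4% of Cyp2a22, 26.1% of Cyp2b9 and 21.6% of Cyp2b10. Reads from such windows were shared out between the genes by an estimate, so that the split within a pair is less certain than the sum of the pair. The 6 pseudogenes found among the genes that share most windows with the members had at most 6.3 normalised counts in any liver, the highest being Cyp2a21-ps.

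**Figure D1:**
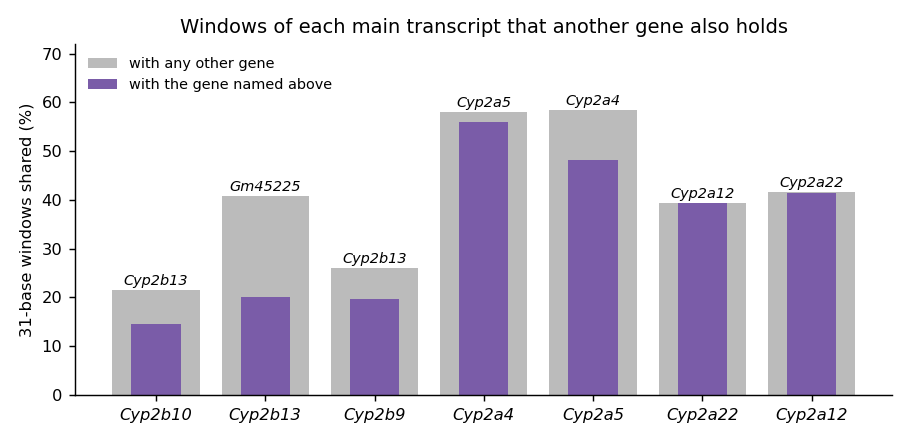
Percentage of 31-base windows of the main transcript of each member that also occur in a transcript of another gene. Grey bars count any other gene and purple bars the single gene named above the bar; Cyp2a4 and Cyp2a5 share the most, with 58.1% and 58.5% of their windows also found elsewhere.

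Several samples stood apart from their groups. Reads assigned to genes numbered 11202866 to 51480271 per heart and 21238039 to 81518262 per liver. Liver Mrps12+/+ mouse 3 had a summed level of 12 acute phase genes of 2383387 normalised counts, against 368442 to 431772 in the other livers. Liver Mrps12+/+ mice 1 and 2 carried 12 skeletal muscle markers at a summed level of 30972 and 40026, against 44.5 to 222.4 in the other livers, and liver Mrps12ha/ha mouse 3 carried 8 cardiomyocyte markers at 7953, against 42.2 to 503.8. The 14 hepatocyte markers in the table summed to 7176241 to 8710625 in every liver and to 2467 to 22609 in the hearts, and Ddx3y of the Y chromosome lay between 1499.3 and 2322.7 in every liver. In whole-tissue RNA, fewer cells of a type and less RNA per cell cannot be told apart.

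In the livers, Cyp2a22 was present in the Mrps12+/+ mice and was at or near 0 in all mutants, whereas Cyp2a5 and Cyp2a12 were higher in every mutant liver than in every Mrps12+/+ liver. Cyp2b9, Cyp2b10 and Cyp2b13 were above all Mrps12+/+ livers in the 3 Mrps12ha/ha livers but not in all Mrps12ep/ep livers, and Cyp2a4 was the 1 gene whose log2 difference from Mrps12+/+ had opposite signs in the 2 mutants, with groups that overlapped. Groups did not overlap for 6 of the 7 genes in Mrps12ha/ha against Mrps12+/+ livers, 5 of them higher and 1 lower, where 19.9% of the 15314 tested genes did not overlap (10% higher, 9.81% lower), and for 3 of the 7 in Mrps12ep/ep against Mrps12+/+ livers, 2 higher and 1 lower, where 12.8% did not (6.49% higher, 6.28% lower). Across all tested genes, the members included, 1 gene (0.00653%) passed the test in each of these 2 comparisons. Nothing is read from these counts, since the genes were chosen on these comparisons, which also share the same Mrps12+/+ mice.

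Cyp2a22, an uncharacterised member of the Cyp2a subfamily, had 284.7, 517.5 and 1180.5 normalised counts in the Mrps12+/+ livers. It had 2.4, 0 and 0 in the Mrps12ep/ep livers and 0, 0.7 and 1.0 in the Mrps12ha/ha livers. In reads, 2495 over the 3 Mrps12+/+ livers stood against 3 and 2 over the mutant groups. The ratio to Mrps12+/+ was 0.00151 (95% exact interval 0.00031 to 0.0044) for Mrps12ep/ep and 0.0011 (0.000133 to 0.00396) for Mrps12ha/ha. These intervals cover counting error only and not the spread between mice. They are no test, since the genes were chosen on this loss. With both mutants at 3 reads or fewer no fold between them is given. In Mrps12+/+ livers Cyp2a22 made up 3.18% of the summed level of Cyp2a12 and Cyp2a22, and in the mutants 0.00236% and 0.00162%.

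Cyp2a12, the near-identical relative of Cyp2a22 and a steroid hydroxylase of liver, was the steadiest member. It had 21414, 22392 and 16568 normalised counts in Mrps12+/+ livers, 33564, 32432 and 35591 in Mrps12ep/ep livers and 33092, 39412 and 32666 in Mrps12ha/ha livers. All 6 mutant livers lay above the 3 Mrps12+/+ livers, with a log2 difference of 0.76 ± 0.14 (SE) in Mrps12ep/ep and 0.81 ± 0.14 in Mrps12ha/ha mice. With Cyp2a22 added to it, the log2 differences of the pair were 0.71 ± 0.13 and 0.76 ± 0.13.

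Cyp2a5 had 20144, 19055 and 9317 normalised counts in the Mrps12+/+ livers. It had 33919, 38595 and 47736 in the Mrps12ep/ep livers and 53451, 53279 and 43826 in the Mrps12ha/ha livers. The lowest value belonged to Mrps12+/+ mouse 3, the liver with high acute phase genes, and without that mouse the log2 differences were 1.02 in Mrps12ep/ep and 1.35 in Mrps12ha/ha mice, against 1.38 ± 0.27 and 1.71 ± 0.27 with it. The part of the acute phase genes in the level of Cyp2a5 was not tested. With all mice, every mutant liver lay above every Mrps12+/+ liver. Relative to albumin, Cyp2a5 had 3.22 to 5.65 normalised counts per 1000 of Alb in Mrps12+/+ livers and 7.66 to 14.3 in the mutants. These ratios rest on the same Cyp2a5 values, on which the genes were chosen, and are a description only.

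Cyp2a4, whose promoter and transcript are almost those of Cyp2a5, did not vary with it. It had 1235.5, 160.1 and 407.6 normalised counts in Mrps12+/+ livers, 1059.1, 633.9 and 1489.2 in Mrps12ep/ep livers and 468.9, 19.8 and 128.9 in Mrps12ha/ha livers. Both mutants overlapped with Mrps12+/+ livers, and the Mrps12ha/ha livers lay below all Mrps12ep/ep livers. The number of Cyp2a5 counts per count of Cyp2a4 ranged from 16.3 in Mrps12+/+ mouse 1 to 2690 in Mrps12ha/ha mouse 2. Since Cyp2a4 and Cyp2a5 share 55.9% of the windows of Cyp2a4, reads from these had to be split between them. The part of this split in the low values of Cyp2a4 was not tested. The sum of the 2 genes differed from Mrps12+/+ by 1.36 ± 0.27 (log2) in Mrps12ep/ep and 1.66 ± 0.27 in Mrps12ha/ha livers.

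**Figure D2:**
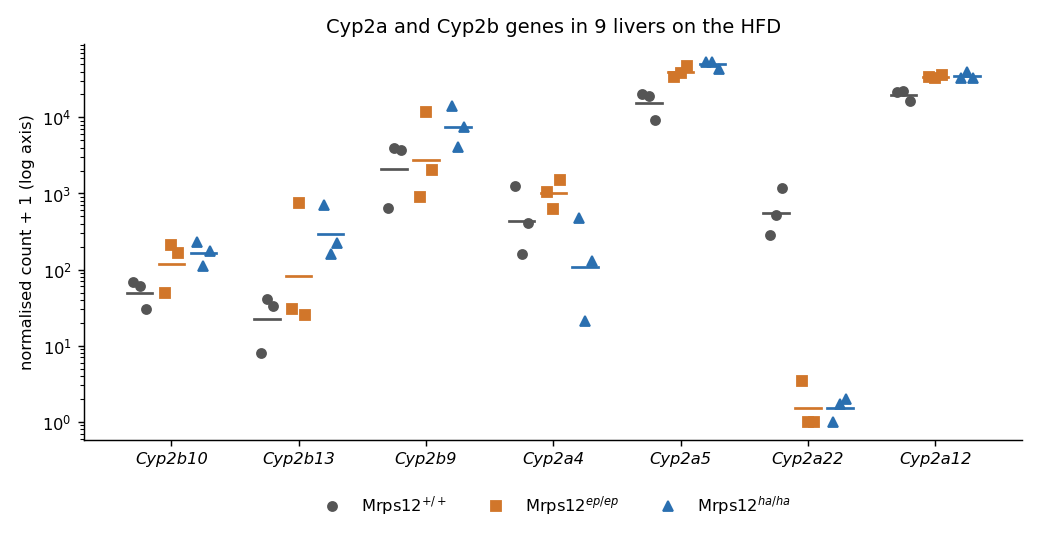
Normalised counts (plus 1, log axis) of the 7 members in each of 9 livers, in chromosomal order; each symbol is 1 mouse and the short line is the geometric mean of 3 mice. Cyp2a22 lies between 284.7 and 1180.5 in Mrps12+/+ livers and at most at 2.4 in the mutants, and Cyp2a5 and Cyp2a12 are above all Mrps12+/+ livers in the 6 mutant livers.

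Cyp2b9 and Cyp2b13 varied widely between mice of 1 genotype. Cyp2b9 had 643.7, 3932 and 3737 normalised counts in Mrps12+/+ livers, 910.2, 11872 and 2004 in Mrps12ep/ep livers and 14085, 4087 and 7544 in Mrps12ha/ha livers. Cyp2b13 had 7.0, 40.4 and 32.6, then 29.8, 743.7 and 24.4, and then 695.0, 161.1 and 223.5 in the same order. Mrps12ep/ep mouse 2 and Mrps12ha/ha mouse 1 were highest for both genes, and Mrps12+/+ mouse 1 was lowest for both. The highest liver exceeded the lowest by 21.9-fold for Cyp2b9 and 106.2-fold for Cyp2b13.

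The ratio of Cyp2b9 to Cyp2b13 was not constant, although their promoters differ at 2 of 250 bases. It was 92.0, 97.3 and 115 in the Mrps12+/+ livers, 30.5, 16.0 and 82.1 in the Mrps12ep/ep livers and 20.3, 25.4 and 33.8 in the Mrps12ha/ha livers. All 6 mutant ratios were below those of the Mrps12+/+ livers, but reads of Cyp2b13 were few. It had 10, 50 and 40 reads in the Mrps12+/+ livers and 11 in Mrps12ep/ep mouse 3. At these counts the 82.1 of that mouse is not told apart from the 92.0 of Mrps12+/+ mouse 1. In the other mutant livers, with 38 to 1029 reads of Cyp2b13, it made up a larger share of the pair. Of the windows of Cyp2b9, 19.6% also occur in Cyp2b13, and the part of read sharing in the ratio was not tested.

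Cyp2b10, the CAR target, was present at low levels in all 9 livers. It had 67.2, 59.0 and 29.3 normalised counts in Mrps12+/+ livers, 48.6, 210.3 and 164.2 in Mrps12ep/ep livers and 226.1, 111.9 and 172.6 in Mrps12ha/ha livers. The Mrps12ha/ha livers lay above the Mrps12+/+ livers, and Mrps12ep/ep mouse 1 lay within them. The log2 difference from Mrps12+/+ was 1.27 ± 0.55 in Mrps12ep/ep and 1.72 ± 0.55 in Mrps12ha/ha mice.

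**Figure D3:**
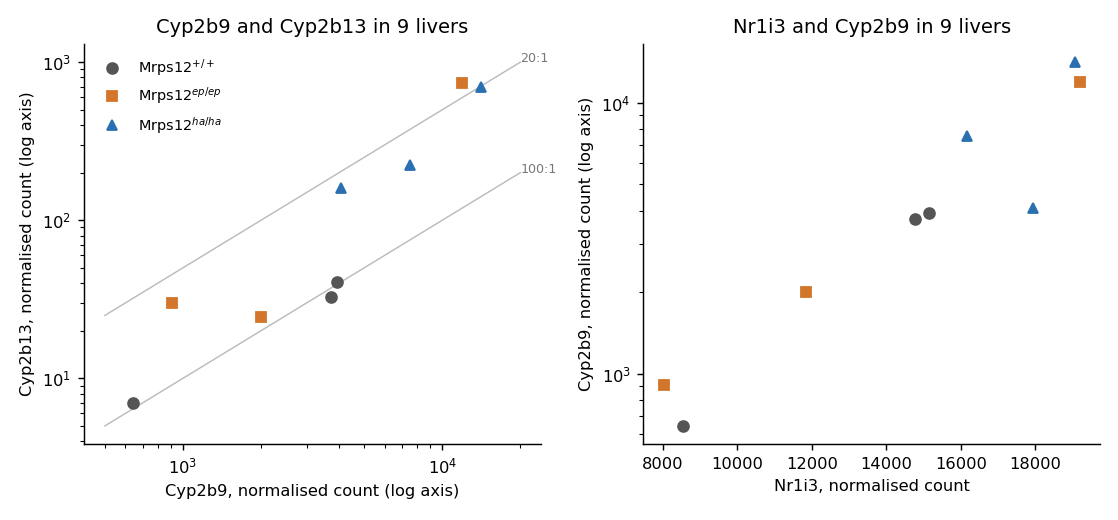
Left, Cyp2b13 against Cyp2b9 in 9 livers (normalised counts, both axes logarithmic), with grey lines at 20 and 100 counts of Cyp2b9 per count of Cyp2b13. Right, Cyp2b9 (log axis) against Nr1i3 (linear axis), with each symbol 1 mouse; the 3 Mrps12+/+ livers and Mrps12ep/ep mouse 3 have 82.1 to 115 counts of Cyp2b9 per count of Cyp2b13, and the 2 livers with least Nr1i3 have least Cyp2b9.

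Levels of different genes were compared per kb of main transcript. In Mrps12+/+ livers Cyp2a12 led with 11972 normalised counts per kb, followed by Cyp2a5 with 8034, Cyp2b9 with 1477, Cyp2a22 with 368.0, Cyp2a4 with 345.8, Cyp2b10 with 27.1 and Cyp2b13 with 14.2. The ranges of Cyp2a12 and Cyp2a5 overlapped over these livers (9856 to 13321 and 4628 to 10007 per kb), but Cyp2a12 was the higher within each liver. Ranges also overlapped for Cyp2b9 (343.1 to 2096), Cyp2a22 (158.5 to 657.3) and Cyp2a4 (92.1 to 710.9), with Cyp2b9 above Cyp2a22 within each liver. Those of Cyp2b10 and Cyp2b13 overlapped as well (15.3 to 35.1 and 3.7 to 21.5 per kb). In Mrps12ha/ha livers Cyp2a5 led with 24931 per kb before Cyp2a12 with 20855. Their ranges of 21771 to 26553 and 19433 to 23445 overlapped, but Cyp2a5 was the higher within each of these livers. Before division by length, Cyp2a5 had 0.562 to 0.941 counts per count of Cyp2a12 in Mrps12+/+ livers and 1.34 to 1.62 in Mrps12ha/ha livers. In Mrps12ep/ep livers the 2 genes had 19912 and 20144 per kb.

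The 2 mutants were then compared with each other in the liver, a comparison the choice of genes did not use. No member passed the test across genes (limma, Benjamini-Hochberg adjusted over 15314 genes), where 0.00653% of genes passed. With limma-voom on recovered reads the count of members was also 0. At an unadjusted p below 0.05 there was 1 member, Cyp2a4, against 8.62% of all genes. Cyp2a4 was 1060.7 ± 427.7 (SD, n = 3) in Mrps12ep/ep and 205.9 ± 234.2 in Mrps12ha/ha livers, a log2 difference of -3.21 with a 95% interval of -5.57 to -0.84 and an adjusted p of 0.495 in limma. It rested much on single mice, with -2.02 without Mrps12ha/ha mouse 2 and -4.27 without Mrps12ha/ha mouse 1. It was the 1 member without overlap, where 17.8% of genes did not overlap (8.82% higher, 9.01% lower), and its exact two-sided permutation p was 0.1, the smallest that 3 against 3 mice allow. Cyp2a5 (log2 difference 0.33, interval -0.28 to 0.95), Cyp2a12 (0.05, -0.27 to 0.36), Cyp2b9 (1.44, -0.75 to 3.63), Cyp2b10 (0.45, -0.78 to 1.69) and Cyp2b13 (1.81, -0.96 to 4.58) had intervals that include 0, narrow for Cyp2a12 and wide for the Cyp2b genes. Without Mrps12ha/ha mouse 3, the liver with cardiomyocyte RNA, 2 members did not overlap, Cyp2a4 and Cyp2a5, where 24.4% of genes did not.

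Along the chromosome, the lower Cyp2a22 lay between the higher Cyp2a5 and Cyp2a12. The next P450 gene after Cyp2a12 on the side of Mrps12 was Cyp2f2, a P450 of periportal hepatocytes, which had 22214 to 36189 normalised counts in Mrps12+/+, 42746 to 52757 in Mrps12ep/ep and 43638 to 61986 in Mrps12ha/ha livers. Its log2 differences from Mrps12+/+ were 0.68 in both mutants (adjusted p 0.439 and 0.23 in limma, n = 3). Of the 10 periportal markers, Cyp2f2 among them, 0 passed in either mutant, where 0.00653% of all genes did. At an unadjusted p below 0.05 there were 6 in Mrps12ep/ep and 2 in Mrps12ha/ha livers, against 9.74% and 14.1% of all genes. Without overlap, 5 were higher in Mrps12ep/ep livers, where 6.49% of all genes were. In Mrps12ha/ha livers 1 was higher and 1 lower, where 10% and 9.81% of all genes were. Their median log2 differences were 0.61 and 0.09. Of the 11 pericentral markers 0 passed, and 1 and 5 had an unadjusted p below 0.05, against the same 9.74% and 14.1%. Higher without overlap were 1 and 5, against 6.49% and 10% of all genes, and the medians were -0.02 and 0.26. Cyp2g1 and Cyp2s1, further cluster genes, had at most 132.4 and 59.0 in any liver, and Cyp2t4, Cyp2b19 and Cyp2b23 were at 0 in every liver. Of these 6 cluster genes 3 were tested, and 0 passed with limma or with limma-voom. At an unadjusted p below 0.05 there was 1, Cyp2f2, in each mutant, against the same 9.74% and 14.1% of all genes. Mrps12 had 1507.7 to 1737.3 normalised counts in Mrps12+/+, 1697.9 to 1790.5 in Mrps12ep/ep and 1625.6 to 1914.5 in Mrps12ha/ha livers, and neither it nor its divergent neighbour Sars2 passed the test.

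**Figure D4:**
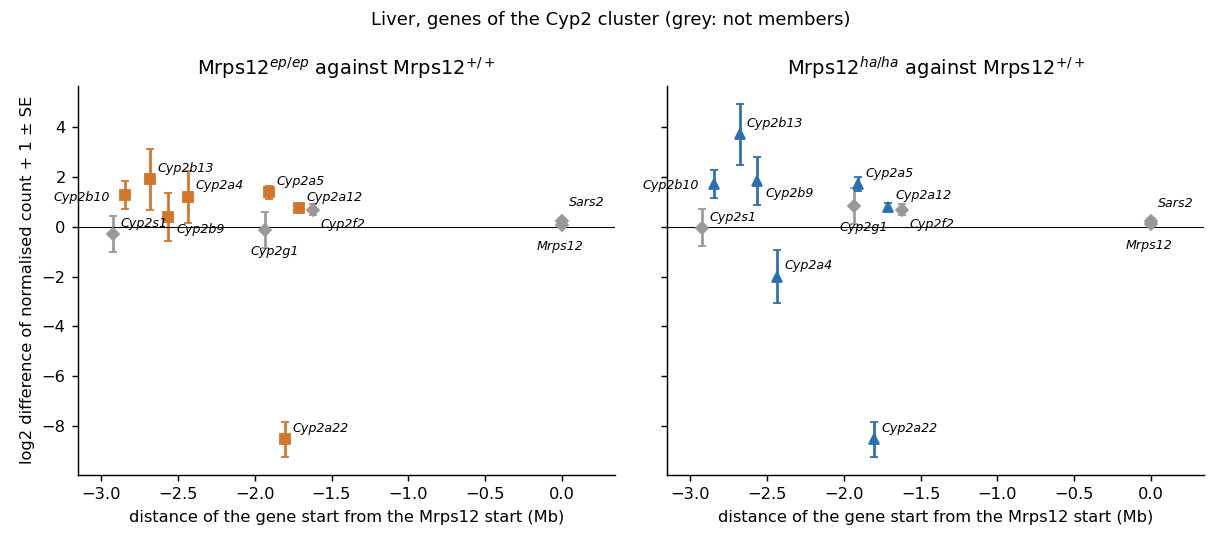
Log2 difference from Mrps12+/+ livers (± SE) against the distance of the start of each gene from the start of Mrps12 in Mb, with Mrps12ep/ep on the left and Mrps12ha/ha on the right. Coloured symbols are the 7 members and grey diamonds other genes of the cluster, Mrps12 and Sars2; Cyp2a22, at -8.54 in both mutants with a pseudocount of 1 (-6.02 and -6.05 with 8, -10.9 and -10.29 with 0.1), lies between Cyp2a5 and Cyp2a12, which are higher.

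In the hearts 4 of the 7 members were at the edge of detection. The other 3, Cyp2a5, Cyp2a12 and Cyp2b10, passed the filter of a mean of 10 normalised counts over 9 hearts. Cyp2a4 had at most 3.8 normalised counts in a heart, Cyp2a22 at most 3.0 and Cyp2b9 at most 12.1, and Cyp2b13 had no read in any heart. No tested member passed the test in Mrps12ha/ha against Mrps12+/+ hearts, where 0.0311% of the 16057 tested genes passed, in Mrps12ep/ep against Mrps12+/+ hearts, where 0% passed, or in Mrps12ha/ha against Mrps12ep/ep hearts, where 0.0249% passed. The count of members was 0 with limma-voom as well. At an unadjusted p below 0.05 these comparisons had 1, 0 and 0 of the 3 members, against 19.7%, 1.69% and 17.9% of all genes. The medians of the 3 log2 differences were -0.74, -2.14 and 1.73, against -0.024, -0.009 and -0.023 over all tested genes.

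Cyp2b10 was the 1 tested member with separate groups in the hearts. It had 139.5, 32 and 287.4 normalised counts in Mrps12+/+ hearts, 42.6, 34.8 and 77.2 in Mrps12ep/ep hearts and 14.7, 27.2 and 18.7 in Mrps12ha/ha hearts. Every Mrps12ha/ha heart lay below every heart of the other genotypes, but reads in the Mrps12ha/ha group were few, 44 over the 3 hearts. Depth also differed by genotype, with 11202866 to 47813325 reads on genes (median 17916522) in Mrps12ha/ha hearts. Mrps12+/+ hearts had 37101153 to 51480271 and Mrps12ep/ep hearts 33825972 to 50551078. Cyp2b10 had 9 reads in Mrps12ha/ha mouse 2 (27.2) and 37 in Mrps12+/+ mouse 2 (32), values that are not told apart at these counts. Against Mrps12+/+ the log2 difference was -2.42 ± 0.69 (SE, 95% interval -3.98 to -0.86) with an adjusted p of 0.203 in limma and an exact two-sided permutation p of 0.1, and against Mrps12ep/ep it was -1.27 (-2.83 to 0.29) with an adjusted p of 0.342. It was the 1 member without overlap in both comparisons, where 21.2% (11.1% higher, 10% lower) and 16.6% (8.77% higher, 7.82% lower) of genes did not overlap, and no member was without overlap in Mrps12ep/ep against Mrps12+/+ hearts, where 8.03% did not (4.4% higher, 3.64% lower). Without Mrps12ha/ha mouse 2 the adjusted p of Cyp2b10 against Mrps12+/+ was 0.043 in limma and all 3 tested members were apart, but 27% of all genes then passed and 58.3% did not overlap.

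The highest Cyp2b10 was in the heart of Mrps12+/+ mouse 3, which also had 8557.4 normalised counts of Ucp1, the uncoupling protein of brown fat, and 1276 of Adipoq of adipocytes. The other 8 hearts had 0 to 722.6 of Ucp1 and 0 to 214.0 of Adipoq. Without this mouse the log2 difference of Cyp2b10 from Mrps12+/+ was -1.73 with an adjusted p of 0.436 in limma. Over 8 adipocyte markers the summed level was 23366, 21810 and 43415 in Mrps12+/+ hearts, 20020 to 28146 in Mrps12ep/ep and 20485 to 40822 in Mrps12ha/ha hearts. The mesothelial markers were also lowest in Mrps12ha/ha hearts, with a summed level of 349.9 to 548.5 over 8 genes. In mouse order they summed to 936.1, 2029.8 and 1309.4 in Mrps12+/+ and 704.2, 3218.8 and 1467.7 in Mrps12ep/ep hearts. In these hearts their order was not that of Cyp2b10, which was 34.8 in Mrps12ep/ep mouse 2. Cyp2s1, an epithelial P450 of the same cluster, had 4.1 to 20.2 in Mrps12ha/ha, 47.4 to 193.8 in Mrps12+/+ and 37.6 to 283.6 in Mrps12ep/ep hearts. The part of these cell types in the level of Cyp2b10 was not tested.

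Cyp2a5 and Cyp2a12 were found in the hearts beside hepatocyte markers, whose part in their levels was not tested. Cyp2a5 had 48.2, 37.2 and 112.6 normalised counts in Mrps12+/+ hearts, 101.0, 1.7 and 3.6 in Mrps12ep/ep hearts and 25.8, 63.4 and 25.6 in Mrps12ha/ha hearts. Cyp2a12 had 49.1, 22.5 and 27, then 83.2, 0 and 3.6, and then 20.2, 51.3 and 16.6. Albumin, made by hepatocytes, had 9895, 2754 and 4116, then 7737, 65.5 and 568.5, and then 1428, 9879 and 2589 in the same hearts. Mrps12ep/ep mice 2 and 3 were lowest for all 3 genes. Counts per 1000 of Alb were taken within each separately normalised table. For Cyp2a12 the median was 6.41 in the hearts (range 0 to 14.1) and 7.49 in the livers (5.49 to 10.6). Cyp2a5 had 13.1 (4.87 to 27.4) and 9.3 (3.22 to 14.3). Cyp2b10 had 11.6 in the hearts (2.75 to 531) and 0.03 in the livers (0.0101 to 0.0512).

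The 95% intervals of Cyp2a5 and Cyp2a12 in the hearts were wide. Against Mrps12+/+ hearts Cyp2a5 differed by -2.47 (log2, -5.11 to 0.18) in Mrps12ep/ep and -0.74 (-3.38 to 1.90) in Mrps12ha/ha hearts. Cyp2a12 differed by -2.14 (-5.11 to 0.84) and -0.25 (-3.23 to 2.72). The groups overlapped for both genes in all 3 heart comparisons. In Mrps12ep/ep against Mrps12+/+ hearts the differences were -4.08 for Cyp2a5 and -3.9 for Cyp2a12 without Mrps12ep/ep mouse 1, and -1.46 and -0.7 without Mrps12ep/ep mouse 2.

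**Figure D5:**
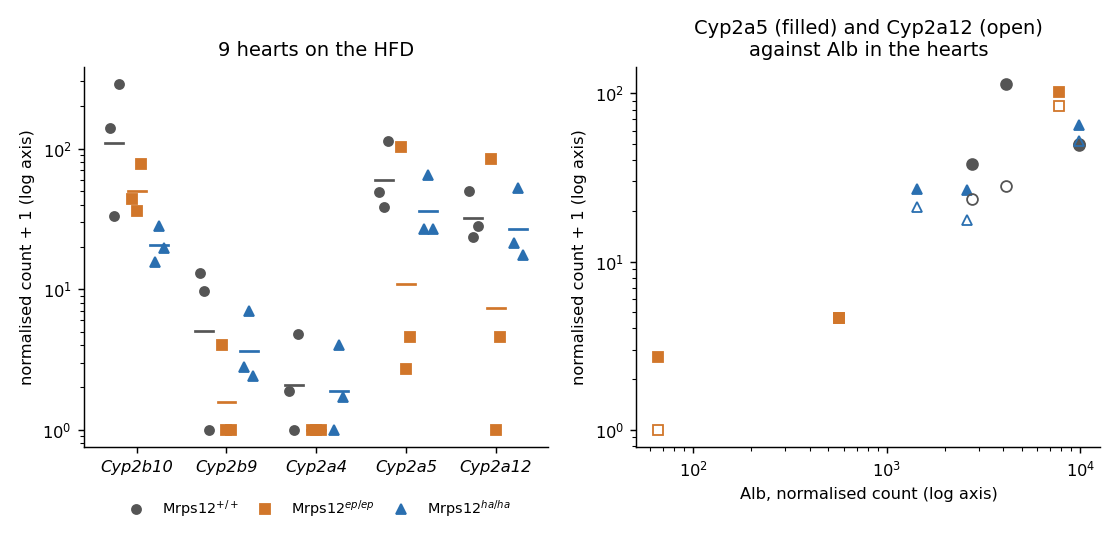
Left, normalised counts (plus 1, log axis) of Cyp2b10, Cyp2b9, Cyp2a4, Cyp2a5 and Cyp2a12 in 9 hearts; symbols are single mice and short lines geometric means of 3. Right, Cyp2a5 (filled) and Cyp2a12 (open) against Alb in the same hearts (log axes); both are lowest in Mrps12ep/ep mice 2 and 3, where Alb is 65.5 and 568.5.

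The genes whose pattern over the 9 mice was most like a member were taken by Pearson's r of log2 values, as a description without a test, over mice that share genotypes, depth and tissue makeup. In the hearts Cyp2a12 was most like Mup20 (r = 0.994), Mup22 and Mup3, which encode major urinary proteins made in the liver, and Cyp2a5 was most like Serpina6 (0.965), Mug1 and Smim19. In the hearts Cyp2b10 was most like Adtrp (0.959), Gabarapl1 and Eapp. In the livers Cyp2a12 was most like Zadh2, 1810059H22Rik and Cyp2c29 (0.971), Cyp2a5 most like Tmem14a (0.979), Kifc2 and Dclk3, and Cyp2a4 most like Strn4 (0.978), Magee1 and Rcsd1. Cyp2b9 was most like the pseudogene 9030619P08Rik (0.987), 4931406C07Rik and Pepd, Cyp2b13 most like Mcrip2 (0.965), A930001C03Rik and Map2k2, and Cyp2b10 most like Nfe2l2 (0.970), Orai1 and Mycl. Cyp2a22 was most like Srp54a (0.975), Gm37031 and Ofd1, and Srp54a, a subunit of the signal recognition particle, had 3912 to 4175 normalised counts in Mrps12+/+ livers and 2575 to 2897 in the mutants.

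Among the members themselves in the liver, r was 0.97 for Cyp2a5 and Cyp2a12, 0.92 for Cyp2b9 and Cyp2b13 and -0.19 for Cyp2a4 and Cyp2a5. In the hearts it was 0.94 for Cyp2a5 and Cyp2a12 and 0.11 for Cyp2a12 and Cyp2b10.

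The regulators of these genes were followed from a list of 24 receptors and transcription factors. All 24 were tested in the liver, and 0 passed in either mutant against Mrps12+/+ at the adjusted threshold. At an unadjusted p below 0.05 there were 4 in Mrps12ep/ep livers, where 9.74% of all genes were, and 11 in Mrps12ha/ha livers, where 14.1% were. Their median log2 difference was 0.13 in Mrps12ep/ep and 0.14 in Mrps12ha/ha, against -0.007 and -0.017 over all tested genes. The 4 with the smallest adjusted p in Mrps12ha/ha livers were Foxa2 with a log2 difference of 1.19 (adjusted p 0.0722 in limma), Cebpa with 1.0 (0.0935), Cebpd with -1.21 (0.0982) and Ahr, the dioxin receptor, with -1.41 (0.111). Without Mrps12+/+ mouse 2 Ahr, Cebpa and Foxa2 passed in Mrps12ha/ha livers, where 0.588% of all genes did. Nr1i3, encoding CAR, had 8552, 15137 and 14773 normalised counts in Mrps12+/+ livers, 8041, 19190 and 11836 in Mrps12ep/ep livers and 19064, 17945 and 16156 in Mrps12ha/ha livers. The 2 livers with the least, Mrps12+/+ mouse 1 and Mrps12ep/ep mouse 1, also had the least Cyp2b9 (r = 0.95 over 9 livers). For Cyp2b10, Mrps12ep/ep mouse 1 was the lowest of the mutant livers with 48.6. Among Mrps12+/+ livers, however, mouse 1 had the most Cyp2b10, 67.2, and mouse 3 the least, 29.3. Nfe2l2, encoding NRF2, an inducer of Cyp2a5, had 3462.5 to 4119.4 in Mrps12+/+, 3806 to 5012.3 in Mrps12ep/ep and 4426.2 to 5001.1 in Mrps12ha/ha livers, with log2 differences of 0.26 and 0.34 (adjusted p 0.525 and 0.261 in limma).

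Of the list of 27 other genes known as targets of CAR and of the related receptor PXR, 0 passed in either mutant, with 8 in each at an unadjusted p below 0.05, against the same 9.74% and 14.1% of all genes. Their median log2 differences were 0.31 in Mrps12ep/ep and 0.26 in Mrps12ha/ha livers. Cyp2c29, which had the most similar course to Cyp2a12 among them, had 28544, 29006 and 12510 normalised counts in Mrps12+/+ livers, 53853, 54044 and 62564 in Mrps12ep/ep livers and 46918, 62660 and 45196 in Mrps12ha/ha livers, with log2 differences of 1.38 and 1.23 (adjusted p 0.299 and 0.149 in limma). Cyp3a25 differed by 0.72 and 0.89 (adjusted p 0.277 and 0.0851). The 4 electron donors, P450 reductase and cytochrome b5 genes among them, had median differences of 0.02 and 0.22, and 0 passed.

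Over all lists, 198 genes that are no members, 173 were tested in the liver and 147 in the heart. In the liver 0 passed in Mrps12ep/ep against Mrps12+/+ and 0 in Mrps12ha/ha against Mrps12+/+ mice, with 39 and 50 at an unadjusted p below 0.05 (9.74% and 14.1% of all genes) and 0 by limma-voom in both. Without Mrps12+/+ mouse 3, the liver with high acute phase genes, 15 and 13 passed, where 0.444% and 0.496% of all genes did. Of these, 11 and 10 were skeletal muscle markers, which the 2 remaining Mrps12+/+ livers carried. Without Mrps12+/+ mouse 1 it was 1 and 0, where 0.17% and 0.0392% of all genes passed. Without Mrps12+/+ mouse 2 it was 0 and 6, where 0.00653% and 0.588% passed. Of the female-biased list 8 of 16 genes were tested and of the male-biased list 14 of 15, with median log2 differences of 0.07 and 0.12 in Mrps12ep/ep and 0.14 and 0.28 in Mrps12ha/ha livers, and 0 passed.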

How the data were processed

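RNA-seq had been made from hearts and livers with 3 technical libraries per mouse, 54 in all. The authors trimmed reads (Trim Galore 0.4.1, cutadapt 1.18), checked them with FastQC 0.11.8, pooled replicate libraries, quantified GENCODE vM21 transcripts on GRCm38.p6 by selective alignment in Salmon 1.1.0 with sequence and GC bias terms, and summarised them per gene for DESeq2. The deposited values are normalised counts, other than raw counts, in 1 table per tissue with 1 column per mouse. Within a column, 100% of low values were whole multiples of a step (within 0.1 read), as counts divided by a size factor are, and reads were recovered from it.

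In each tissue, genes whose mean over all 9 mice was 10 normalised counts or more were fitted as log2(normalised count + 1) with limma 3.58.1 in R 4.3.3 over the 3 genotypes, with Benjamini-Hochberg adjustment over all tested genes and a threshold of 0.05. Fold changes on this scale understate the change of low genes. Single values were also compared by exact two-sided permutation. The scripts were tested on simulated data. The members and lists were chosen with earlier results of these data known. The text names every member, and for each the 3 genes with the highest r. Alternatives were other pseudocounts and filters, array weights, a replicate block, leaving out each mouse, paralog sums and, chosen after seeing the data, limma-voom on recovered reads and overlap counts without mice that stood apart. The main fits did not pair mice by number, and the labels do not say whether numbers pair them. Figures were drawn with matplotlib 3.10.9.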

Additional observations from a re-analysis of the deposited data

Results flagged for a closer look

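Cyp2b10 was flagged because it lay on opposite sides of Mrps12+/+ in the 2 tissues of Mrps12ha/ha mice. In the hearts the log2 difference was -2.42 and all 3 Mrps12ha/ha mice were below all 3 Mrps12+/+ mice, whereas in the livers it was 1.72 and all 3 were above. The difference between the tissues was not tested, since the tables had been normalised separately, and the liver value is part of what chose the genes. With each mouse left out, the log2 difference lay between -3.29 and -1.73 in the hearts and between 1.36 and 1.99 in the livers.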

How the results depend on the processing

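The count of members past the threshold in Mrps12ha/ha against Mrps12+/+ hearts was 0 and became 1 (Cyp2b10, adjusted p = 0.0497 in limma) with array weights, where 34.7% of all genes passed, and ranged from 0 to 1 when each mouse was left out. It was 0 under every alternative run in the other heart comparisons and in Mrps12ha/ha against Mrps12ep/ep livers. List genes past the threshold in the liver ranged from 0 to 15 in Mrps12ep/ep and from 0 to 13 in Mrps12ha/ha against Mrps12+/+ mice when each mouse was left out. Directions turned for 4 values. Cyp2b9 in Mrps12ep/ep against Mrps12+/+ livers was -0.29 (log2) with array weights and -0.65 to 1.21 with mice left out (-0.65 without Mrps12ep/ep mouse 2, -0.46 without Mrps12+/+ mouse 1), and between the mutant livers Cyp2a12 ranged from -0.04 (without Mrps12ha/ha mouse 2) to 0.09 and Cyp2b10 from -0.18 (without Mrps12ep/ep mouse 1) to 0.86. Cyp2a12 in Mrps12ha/ha against Mrps12+/+ hearts ranged from -0.73 to 0.07 (0.07 without Mrps12+/+ mouse 1, 0.05 without Mrps12ha/ha mouse 3). Overlap counts of members were 3 in place of 1 without heart Mrps12ha/ha mouse 2 and 2 in place of 1 between mutant livers without Mrps12ha/ha mouse 3. With the replicate block 0 members passed in the heart comparisons and in Mrps12ha/ha against Mrps12ep/ep livers. In either mutant against Mrps12+/+ livers 0 list genes passed with it, and members were not counted there. Over all tested genes, the members included, 6, 9 and 7 passed in the livers in place of 1. These counts are for Mrps12ha/ha with Mrps12ep/ep, Mrps12ep/ep with Mrps12+/+ and Mrps12ha/ha with Mrps12+/+. Deviations of same-numbered mice correlated by -0.231 to 0.578 in the hearts and -0.133 to 0.164 in the livers. For mice of unlike number these were -0.593 to 0.345 and -0.289 to 0.161. Over all settings the genes passing in Mrps12ha/ha hearts ranged from 3 to 5573 against Mrps12+/+ and from 3 to 6314 against Mrps12ep/ep, and in the livers from 0 to 90, 0 to 68 and 0 to 18 in Mrps12ha/ha against Mrps12+/+, Mrps12ep/ep against Mrps12+/+ and Mrps12ha/ha against Mrps12ep/ep. The causes of these changes were not tested. The planned fits with edgeR, with DESeq2 and with limma-voom under TMM scaling were not run, and limma-voom on the recovered reads was run in their place. Of the 7 members, 4 had too few counts to be tested in the hearts.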
